A study of Rattus norvegicus with 34 samples.

Results

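Position 56 of TaqMan card A gave its earliest signal in rat liver, and in that library it came before every other position compared. It is 1 of the 384 wells of the card, which assay miRNAs and control RNAs. The positions compared leave out 4 wells with close Cp, which came still earlier in liver. The position was chosen by its own values, because liver had its lowest Cp among the 12 tissues, so the lead of liver is a description and was not tested. Cp is the PCR cycle at which the fluorescence of a well crosses the threshold, so that a lower Cp means more template. The files list Cp by position number without miRNA names. Therefore no miRNA, gene locus, or sequence is given for position 56, and the labelled tissues could not be checked against marker miRNAs.

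The libraries were made from Sprague-Dawley rats of both sexes, 4 weeks old, for which the labels give no treatment. The whole tissues were liver and bile duct, the lacrimal and salivary glands, lung, small intestine, kidney, spleen, prostate, pancreas, heart, and skeletal muscle. Glomerulus, proximal tubule, villus of the intestine, and the mammary and bronchial glands were cut out by laser microdissection and preamplified for 12 cycles. Each of these 17 samples was measured once on card A, so there is no replicate error, and whether RNA of several animals was pooled is not given in the sources used here.

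miRNAs are short RNAs that repress the messenger RNAs to which they pair, and many are made mainly in a single cell type. Most of the liver consists of hepatocytes, the cells that make bile and plasma proteins, and miR-122 is the best known miRNA of these cells. The bile ducts are lined by cholangiocytes, and within the liver these arise from the same precursor cells as hepatocytes. These facts are background. Position 56 is not assigned to miR-122 or to any other miRNA here.

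The listed Cp of position 56 was 19.55 in liver and 22.70 in bile duct. It was 29.37 in lacrimal gland, 31.93 in lung, and 31.99 in small intestine. These were the 5 tissues in which the well was detected, at the limit of the methods (a Cp of at most 35). Salivary gland followed at 35.76, just above the limit. Kidney, pancreas, prostate, heart, skeletal muscle, and spleen were listed at 50, the value of a well without amplification. Thus 2 tissues were early, 3 were intermediate, and the remaining 7 were not detected. In bulk tissue, fewer cells that make an RNA and less of it per cell cannot be told apart.

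**Figure D1:**
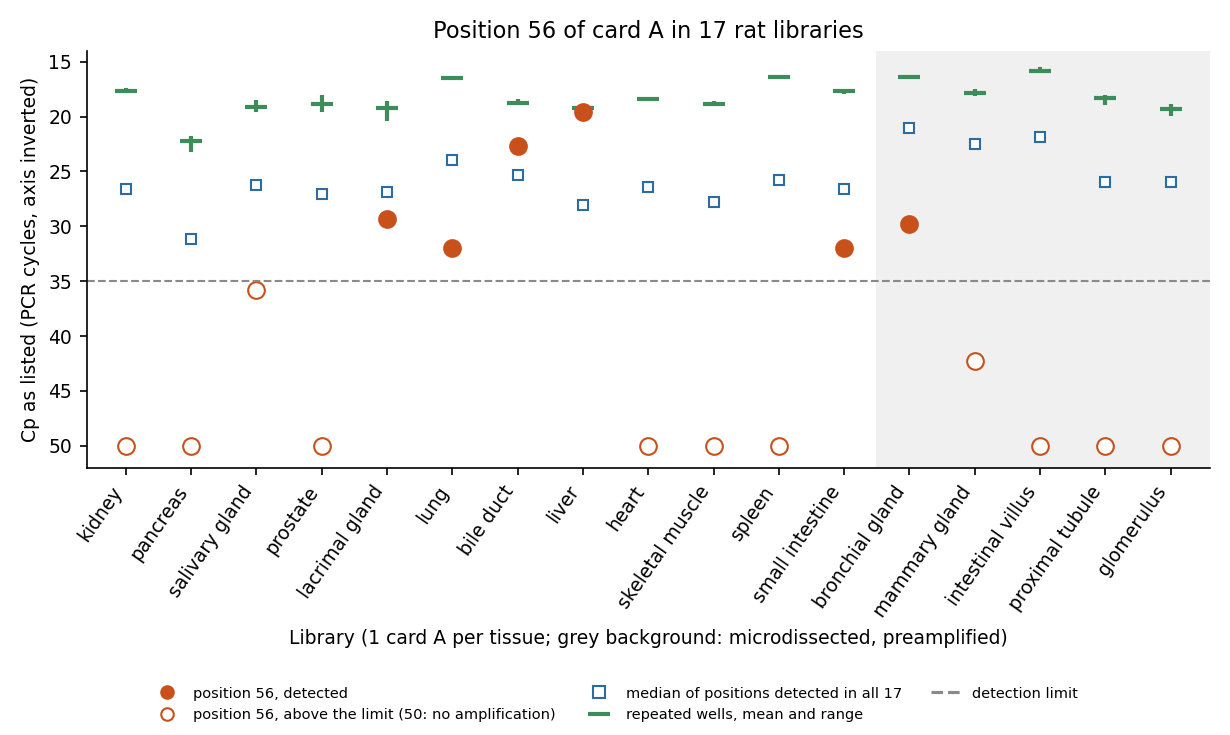
Listed Cp of position 56 in each of the 17 card A libraries (y axis in PCR cycles, inverted, so that earlier wells are higher). Filled circles are detected wells and open circles are wells above the limit of 35, squares are the median of the 78 positions detected in all libraries, and green marks are the mean and range of the 4 repeated wells. Only in liver and bile duct does position 56 lie above the square, and in liver it lies beside the repeated wells.

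Libraries differed in how early their wells amplified. The median Cp of the 78 positions detected in all 17 libraries ran from 23.97 in lung to 31.15 in pancreas among the tissues. It was 28.04 in liver and 25.28 in bile duct, and 174 and 228 positions were detected in these libraries. The Cp of each library was scaled by subtracting this median. The 4 positions with close Cp within a library (11, 12, 35, and 36) were left out of the 380 positions compared, and their mean served as an alternative scale. Their range within a tissue was from 0.14 cycles in heart to 1.79 in lacrimal gland. They were taken as repeated wells of an abundant RNA, although the files name no assay. Their SD was from 0.061 to 0.841 cycles in the tissues. Taken so, it describes the spread between wells and not between animals.

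After scaling, position 56 was at -8.50 cycles in liver, the minus sign meaning earlier than the median of the shared positions. Bile duct was at -2.57, and these were the only libraries in which the position came before that median. Lacrimal gland was at 2.54, small intestine at 5.44, and lung at 7.96 cycles. For tissues without detection the scaled value is a lower bound taken at Cp 35. The bounds ran from 3.85 in pancreas, the library with the latest wells, to 9.26 in spleen. Pancreas therefore could not be placed relative to small intestine and lung, and skeletal muscle (at least 7.21 cycles) and prostate (at least 7.92 cycles) could not be placed relative to lung.

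The gap of liver to bile duct was 3.16 cycles as listed, 5.92 cycles after scaling, and 3.62 cycles relative to the repeated wells. If the product doubled in every cycle, these gaps would be 8.92-fold, 60.7-fold, and 12.3-fold. The size of the gap thus depended on the scale, because the shared positions came 2.77 cycles later in liver than in bile duct, whereas the repeated wells came only 0.46 cycles later. Liver was the earlier tissue on all 3 scales.

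The gaps of liver to the other tissues were larger. Lacrimal gland came 9.82 cycles after liver as listed and 11.04 cycles after it when scaled. The scaled gap was 13.94 cycles to small intestine and 16.46 cycles to lung. Among the tissues without detection, the scaled gap was at least 12.35 cycles to pancreas, 15.71 to skeletal muscle, 16.42 to prostate, 16.94 to kidney, 17.06 to heart, 17.25 to salivary gland, and 17.76 to spleen. As listed, the gap to each of these tissues was at least 15.45 cycles. No organ other than bile duct came within 9 cycles of liver on any of the 3 scales.

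**Figure D2:**
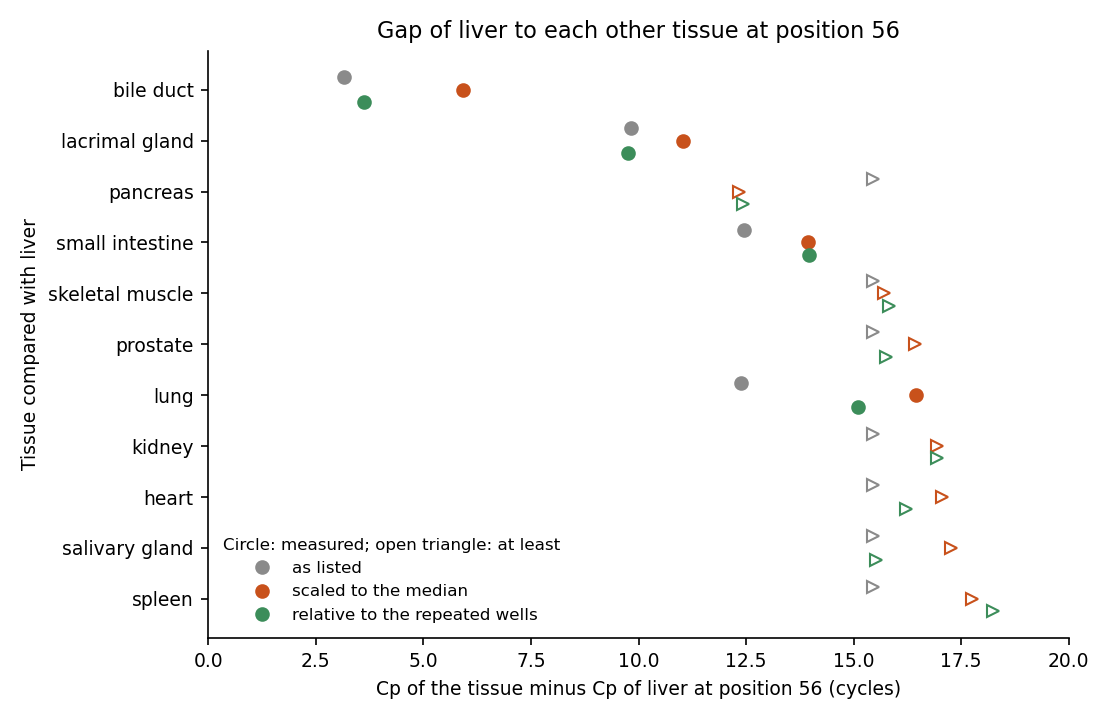
Cp of each other tissue minus the Cp of liver at position 56 (x axis in cycles) as listed, scaled to the median of the shared positions, and relative to the repeated wells. Circles are measured gaps and open triangles are lower bounds for undetected wells. Bile duct is nearest, between 3.16 and 5.92 cycles, followed by lacrimal gland between 9.75 and 11.04 cycles.

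The order of the detected tissues below liver was bile duct, lacrimal gland, small intestine, and lung after scaling. Bile duct preceded lacrimal gland by 5.11 cycles, against a combined SD of the repeated wells of 0.89 cycles. Lacrimal gland preceded small intestine by 2.90 cycles (combined SD 0.88 cycles). Small intestine preceded lung by 2.52 cycles after scaling (combined SD 0.29 cycles), but lung was listed 0.06 cycles earlier than small intestine. The order of lung and small intestine therefore rested on the scale, and as listed they differed by less than the spread between repeated wells. These SDs cover wells taken as repeats of a single abundant RNA and not tissues or animals, and no repeated wells were found at the later Cp of these tissues.

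Wells of the lacrimal and salivary glands, bile duct, pancreas, and prostate amplified until cycle 44.34 to 44.92, and those of the other 7 tissues until cycle 40.96 to 42.00. The number of cycles run is not given in the sources used here, and the division rests on these latest wells alone. Liver and bile duct stand on different sides of it, and its part in their gap was not tested. Among the 7 tissues without a well later than cycle 43, the next tissue after liver was small intestine, 13.94 cycles later when scaled. Without scaling it was lung, 12.39 cycles later.

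The rank of a position within a library needs no scale. Position 56 ranked 1 of 380 in liver and 12 of 380 in bile duct. It ranked 92 in lacrimal gland, 169 in small intestine, and 188 in lung. The positions detected in these tissues numbered 201, 235, and 249, in the same order, and undetected wells rank after them. The position thus passed from the earliest of the compared wells in liver to the later detected wells in small intestine and lung. Assays of different miRNAs differ in efficiency, so ranks order wells and not numbers of molecules.

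In liver the next positions were 23 at Cp 22.19, 61 at 22.77, 371 at 22.88, and 179 at 23.78. Position 56 preceded position 23 by 2.64 cycles and the median of all positions detected in liver by 10.43 cycles. Positions 23, 61, 371, and 179 were detected in all 12 tissues, and their scaled Cp spanned 2.09 to 5.40 cycles over the tissues. Position 56, in contrast, was detected in 5 tissues. In liver it came 0.36 cycles after the mean of the repeated wells and later than each of them (18.97 to 19.42). The distance between the 2 earliest compared positions was larger than in liver in 3 of the other 16 libraries, namely pancreas, skeletal muscle, and intestinal villus.

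In bile duct 11 positions preceded position 56, with Cp from 19.11 to 22.17. All 11 were detected in every library. In liver the same 11 positions had Cp from 22.19 to 26.96 and ranks from 2 to 30, so that each of them came after position 56.

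**Figure D3:**
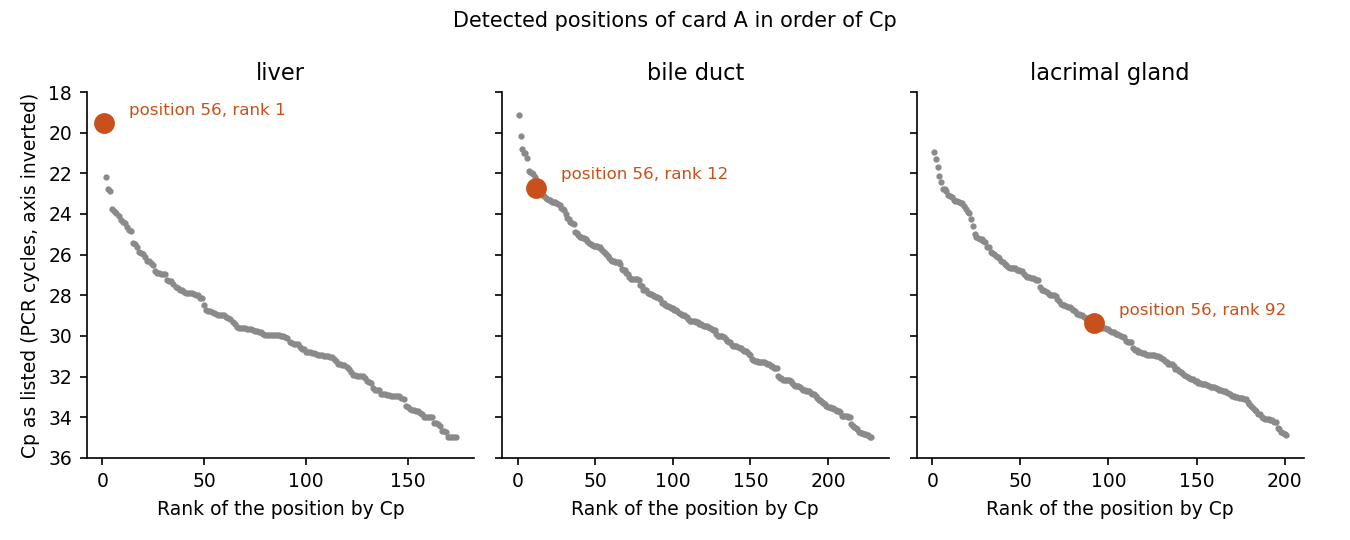
The detected positions of card A, without the 4 repeated wells, in order of Cp (x axis, rank; y axis, listed Cp in cycles, inverted) in liver, bile duct, and lacrimal gland, with position 56 in orange. It precedes the next of these positions by 2.64 cycles in liver, ranks 12 in bile duct, and ranks 92 in lacrimal gland.

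The remaining positions were then compared between liver and bile duct. In the 167 positions detected in both libraries, the median of bile duct minus liver was -1.94 cycles as listed, that is, most wells came later in liver. Position 56 went the other way, with 3.16 cycles. After scaling, the median was 0.83 cycles. Of the 235 positions detected in at least one of these libraries, 7 (2.98%) were at least 3 cycles lower in liver as listed, position 56 included. After scaling there were 28 (11.9%). Since the position was chosen for its level in liver, nothing is read from its place among them.

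By the size of this gap, with undetected wells at 35, position 56 was the 6th of the 235 positions before and after scaling. The 5 positions with larger gaps had gaps of 3.49 to 6.05 cycles before scaling, and their Cp in liver was 28.95 to 31.39. The 6 other positions at least 3 cycles lower in liver before scaling had Cp values of at least 28.95 in liver. Of these, 2 were undetected in bile duct, so their gaps are lower bounds. The place of position 56 depends on this limit. Kept as listed, the bile duct wells of positions 335, 249, 285, and 240 (Cp 37.05 to 50) would also give larger gaps than position 56. Among the 27 others found after scaling, the earliest Cp in liver was 23.97. Position 56 had its gap at a Cp of 19.55 in liver. It was chosen for its level in liver, so nothing is read from this contrast.

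**Figure D4:**
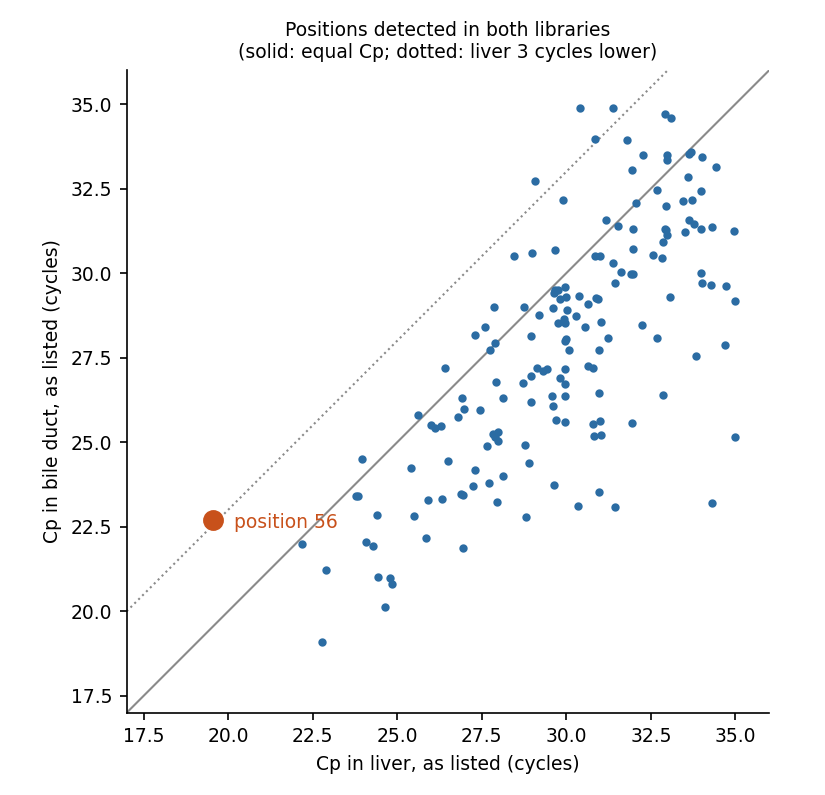
Listed Cp in liver (x axis) and in bile duct (y axis) of the 167 positions detected in both libraries, in cycles. The solid line marks equal Cp and the dotted line a Cp 3 cycles lower in liver. Most points lie below the solid line, while position 56 lies at the early end, just above the dotted line.

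Liver was then compared with each of the other 11 tissues at every position. Of the 174 positions detected in liver, 1 (0.575%) was at least 3 cycles lower in liver than in every other tissue after scaling. This was position 56, with a lead of 5.92 cycles, and it was the only such position as listed and relative to the repeated wells as well. Undetected wells count at 35, which is 3.85 scaled cycles in pancreas, so positions late in liver could not reach 3 cycles. Position 285, detected in no tissue but liver (Cp 34.67), had a scaled lead of -2.77 cycles. The count therefore covers only positions that were early enough in liver, and most of the 174 were too late to reach 3 cycles after scaling. The position next to this threshold was 311, with a lead of 2.53 cycles. At a scaled Cp of 1.03 in liver, position 311 was itself too late to reach 3 cycles after scaling. Its listed Cp was 29.07 in liver, 30.11 in small intestine, 32.70 in kidney, and 32.72 in bile duct, and it ranked 61 in liver. Positions 224 and 350 followed with scaled leads of 1.13 and 1.05 cycles, and as listed both were lower in another tissue than in liver. In all, 18 positions had a lead above 0 after scaling and 4 as listed.

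Liver and bile duct together preceded every other tissue by 5.11 cycles at position 56. The next positions by this measure were 374, with 0.54 cycles, and 181, where another tissue preceded the later of both by 0.12 cycles. Position 374 had a listed Cp of 25.48 in liver and 22.82 in bile duct, and it was at 24.63 in small intestine.

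**Figure D5:**
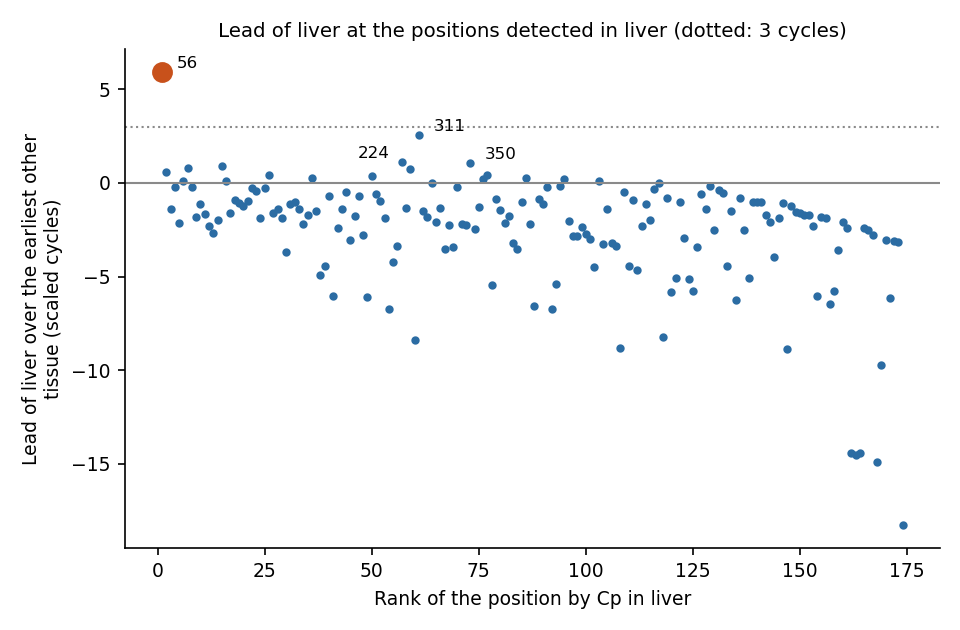
Scaled Cp of the earliest other tissue minus that of liver (y axis, cycles) for the 174 positions detected in liver, ordered by their rank in liver (x axis). Values above 0 are positions with liver as the earliest tissue. Position 56, at 5.92 cycles, is the only point above the dotted line at 3 cycles, and 311 is next at 2.53 cycles.

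Over the 12 tissues, 27 positions were at least 3 cycles lower in a single tissue than in all others after scaling. The other 26 had ranks from 1 to 124 in the tissue that led them, with a median of 18. Many of them were led by pancreas, whose median of shared positions was the latest (31.15), so that even late wells there could lead after scaling. The last was position 250 in pancreas, at Cp 34.90 and rank 124. Rank 1 was held by position 56 in liver, by position 130 in small intestine at Cp 19.93, and by position 312 in pancreas at Cp 17.00.

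Few positions had a pattern similar to that of position 56. Over the 12 tissues, Pearson's correlation of the scaled Cp with position 56 was highest at positions 311 (r = 0.65), 104 (r = 0.63), 52 (r = 0.62), 181 (r = 0.59), and 107 (r = 0.54). It was at least 0.5 at 6 of the 173 other positions detected in liver, and the median was -0.01. Spearman's rho was 0.66 at both 311 and 104, 0.34 at 52, 0.40 at 181, and 0.71 at 107. Without liver, r was between 0.20 (position 52) and 0.57 (position 181) at these 5 positions, and without liver and bile duct it was between 0.14 (position 52) and 0.50 (position 311). The most similar position depended on the tissues and the scale. Without liver and bile duct it was 37 (r = 0.80 over 10 tissues), and without scaling over all 12 tissues it was 285 (r = 0.72). Position 285 was detected in no tissue but liver, at Cp 34.67, just below the limit. Its r therefore rests on the value of liver alone and shows no shared pattern among the other tissues. The values of a library share its scale, and undetected wells were set to the limit. Positions 56 and 311 were both undetected in pancreas, salivary gland, prostate, heart, skeletal muscle, and spleen. Their scaled values there were equal by construction. In the tissues without detection, the value of position 56 is 35 minus the library median, so these r, that of position 37 included, rest partly on the scale.

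Positions 104 and 107 were also low in tissues in which position 56 was late. Position 104 had a scaled Cp of -4.20 in liver and -1.87 in bile duct, but also -4.10 in small intestine and -3.39 in kidney. Position 107 was at -2.44 in liver and at -4.04 in small intestine. Neither was led by liver by 3 cycles.

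In the microdissected samples, position 56 was detected in bronchial gland only, at a listed Cp of 29.79. It ranked 181 of 380 there, with 248 positions detected. Mammary gland was listed at 42.25, and intestinal villus, proximal tubule, and glomerulus at 50. Whole kidney and both of its compartments were thus listed at 50. These samples were preamplified, so their listed Cp cannot be set against those of the tissues. After scaling, bronchial gland was at 8.76 cycles, 0.80 cycles later than lung, whereas relative to the repeated wells it was 2.11 cycles earlier than lung. The order of lung and bronchial gland therefore changed with the scale.

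The libraries of small intestine and of its villus differed at position 56. The well was detected in whole small intestine and listed at 50 in the villus. In the villus it was at least 7.75 cycles later after scaling and at least 4.85 cycles later relative to the repeated wells. Only the villus was microdissected and preamplified, and its RNA was isolated with another kit. A difference of tissue and these differences of handling cannot be told apart. No sample of liver or bile duct was microdissected, and so the position was not followed to hepatocytes or to bile duct cells.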

How the data were processed

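Total RNA of rat tissues was isolated with TRIzol reagent, and that of microdissected samples with the mirVana PARIS Kit. The authors ran TaqMan MicroRNA Array cards on an ABI Prism system and read Cp with the software of the maker (SDS and RQ Manager). They deposited Cp not yet normalized to U6, and listed wells that did not amplify at 50. Software versions are not given in the sources used here. The protocol labels name the human kit, whereas the series text names the rodent kit. Card B was not used, because its wells hold other assays.

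Undetected wells (Cp above 35) were set to 35 for gaps. Each library was scaled to the median of 78 shared positions. Named positions were position 56, the 5 most correlated with it, the 3 others with the largest lead of liver, the 3 with the largest lead of liver and bile duct, and those next to the lead of 3 cycles. Positions 23, 61, 371, 179, 130, 312, 37, and 285 were named after their values were seen. The position and the lists were chosen with earlier results of these data known. No test was run, as each sample has 1 library. The number of wells and cycles limits precision, and depth does not apply to Cp. The calculation of leads returned leads planted in liver in shuffled data. This checks the arithmetic only, and not how often leads are missed or falsely found. Python 3.11.15, numpy 2.4.6, pandas 2.3.3, and matplotlib 3.10.9 were used.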

Additional observations from a re-analysis of the deposited data

How the results depend on the processing

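No alternative reversed the sign of the lead of liver, of the gap of bile duct to the next tissue, or of the correlation of position 311. Position 56 was chosen for its lowest Cp in liver and 311 for its highest r, largely fixing the signs of lead and correlation. Undetected wells set to 40 or kept as listed could not move the lead or gap, both between detected wells. Detection, rank, and numbers of positions were also followed, but have no direction to reverse. The orders of lung against small intestine and bronchial gland were not followed, and both turned with the scale. Small intestine came 2.52 cycles before lung scaled and 0.06 after it as listed. Bronchial gland came 0.80 after lung scaled and 2.11 before it relative to the repeated wells. The lead of liver at position 56, which is also its gap to bile duct, was 5.92 cycles. It was 3.16 without scaling and 3.62 relative to the repeated wells. With each other library left out of the scale in turn it ran from 5.88 to 6.36 cycles, the highest without pancreas. Only leaving out pancreas, prostate, lacrimal gland, heart, skeletal muscle, or proximal tubule changed the 78 shared positions. The others could not move the lead. With bile duct left out of the comparison the lead was 11.04 cycles. It was 13.94 cycles over the tissues without a well later than cycle 43, an alternative chosen after seeing the data. The gap of bile duct to the next tissue was 5.11 cycles, and it was 6.66 without scaling and 6.13 relative to the repeated wells. With a detection limit of 32 it was 3.24 cycles, since pancreas, undetected and set to 32, then became the next tissue.

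Position 56 was detected in 5 tissues, and in 6 with a limit of 40, which added salivary gland. Its rank in liver was 1, and 5 when the repeated wells were ranked too. Positions led by liver by 3 cycles numbered 1, and 4 with a lead of 1 cycle. The 28 positions lower in liver than in bile duct became 7 without scaling, 8 with the repeated wells, 17 with a limit of 32, 46 with a limit of 40, 10 with a lead of 5 cycles, and 108 with a lead of 1 cycle. With a library left out of the scale they numbered from 27 to 44, the highest without pancreas. The correlation of position 311 with position 56 was 0.65, and 0.30 without liver and 0.50 without liver and bile duct. Replicates could not be left out, since there are none.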
